A study of Mus musculus with 6 samples.

Results

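Genes of the cytosolic ribosomal proteins were followed in whole mouse uterus over the first 24 h after 1 dose of progesterone. They were taken by name, as probe sets whose platform annotation gives 1 symbol of the Rpl or Rps series (with Rplp0 and Rpsa, and without the Rps6k kinases). The rule found 49 probe sets of 35 genes, out of 8251 genes with 1 symbol on the array. For each gene the probe set with the highest mean over the 6 arrays was used. Of the 35 genes, 27 were analysed because they lay above a floor of 6.60 (log2) on at least 2 arrays, 12 of the large and 15 of the small subunit. Of these, 24 were above the floor with a value on every array.

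The mice were ovariectomized 129/SvImJ wildtype females of 10 to 16 weeks, an inbred strain left without ovarian hormones. Uteri were taken 14 days after ovariectomy, either without injection (0 h) or 6, 12, 15, 18 or 24 h after 0.2 mg progesterone given under the skin in 0.1 mL sesame oil. Every time point was 1 Affymetrix array of an RNA pool from 4 mice (8 horns), so no time had a replicate, and the number of arrays limits the precision of every value. Mice injected with oil alone were not analysed here, and all differences share the same 0 h array. Array medians lay between 7.12 and 7.22, and the 0 h array correlated with the others at 0.94 to 0.95, against 0.96 to 0.99 among the progesterone arrays. Of 5 uterine markers, Hoxa10, Hoxa11, Esr1 and Pgr, the progesterone receptor itself, were above the floor on all 6 arrays, and Wnt7a was at the table's lower limit of 5.39 on all 6.

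The cytosolic ribosome joins a large subunit, which forms peptide bonds, to a small subunit, which decodes the messenger RNA. Each of its proteins is needed in nearly equal number, and free surplus copies are degraded. The messenger RNAs of these proteins are abundant and stable, and they begin with a pyrimidine tract, the terminal oligopyrimidine (TOP) element, through which the kinase mTORC1 and the RNA-binding protein Larp1 set how actively they are translated. An array measures RNA amount and not translation. In the uterus steroid hormones are known to raise protein synthesis as the tissue prepares for pregnancy.

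The ribosomal protein genes kept close to their 0 h values. Over the 5 times after the dose, in order, their median log2 difference from 0 h was -0.02, 0.03, -0.06, -0.05 and 0.01, beside -0.06, 0.03, 0.03, -0.04 and 0 over all analysed genes. The sign of the member median at 6, 12, 18 and 24 h changed with another scaling of the arrays, and every one of these medians stayed between -0.12 and 0.03. Large and small subunit genes had medians of -0.01 and -0.02 at 6 h, and of 0.04 and -0.00088 at 24 h. Of the 27 genes, 23 (all but Rpl13a, Rpl22, Rpl7l1 and Rps29) stayed under 1.5-fold from 0 h at every time measured. The 4 that passed 1.5-fold at 1 or more times make 14.8% of the members, against 22.8% of the 5915 analysed genes. At 2-fold there were 0 members, against 6.2% of genes. By time, 1 member was 1.5-fold lower at 6 h (6.06% of genes) and 0 higher (4.64%), and at 12 h 1 was lower (6.3%) and 1 higher (6.92%). At 15 h there were 0 lower (5.95%) and 0 higher (7.98%). At 18 h 2 were lower (7% of genes) and 0 higher (4.37%), and at 24 h 0 lower (5.1%) and 1 higher (4.88%). With 1 array per time these counts have no replicate check.

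**Figure D1:**
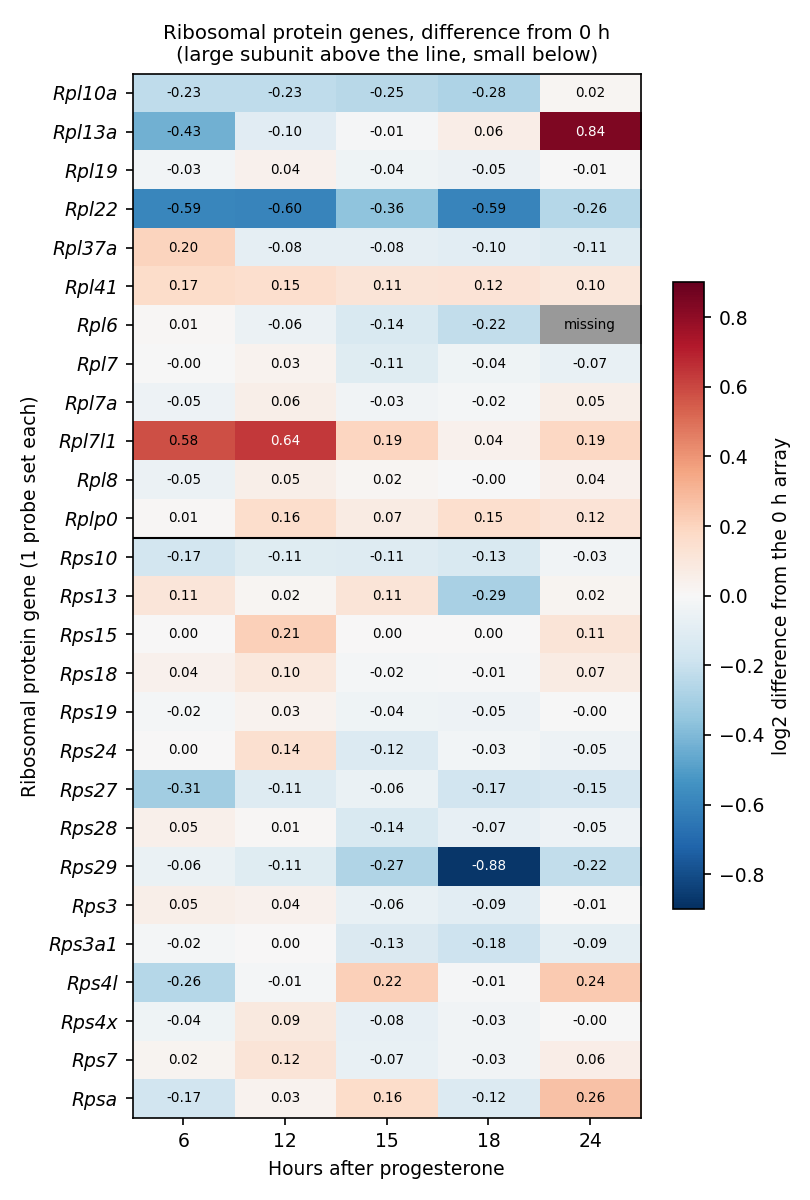
Log2 difference from the 0 h array for the 27 analysed ribosomal protein genes (rows, large subunit above the line) at 6, 12, 15, 18 and 24 h after progesterone (columns); red is higher and blue lower than at 0 h. Most cells are pale, the strongest are Rpl13a at 24 h (0.84) and Rps29 at 18 h (-0.88), and Rpl6 has no value at 24 h.

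The 5 genes with the smallest range over the 6 arrays came from both subunits. Rps19, a small subunit protein whose human gene is mutated in Diamond-Blackfan anemia, read 12.50, 12.48, 12.53, 12.46, 12.45 and 12.50 at 0, 6, 12, 15, 18 and 24 h, a range of 0.079. Rpl19, of the large subunit, read 12.63, 12.60, 12.67, 12.59, 12.58 and 12.62, a range of 0.089. Both were highest at 12 h and lowest at 18 h. A dimmer second probe set of Rpl19, 161961_at, was less level, with 0.25 at 12 h and 0.31 at 24 h. Rpl8, near the peptidyl transferase center, had a range of 0.104, and so did Rpl7a. Rps18, which sits in the head of the small subunit, had a range of 0.117. Among the 5310 genes above the floor with a value on all 6 arrays, Rps19 had the 6th smallest range and Rpl19 the 15th.

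The brightest probe sets were those of Rpl41, Rps28, Rps18, Rplp0 and Rps3. A probe set's brightness depends on its probes as well as on RNA amount, so levels were not compared between genes. Rpl41, the smallest ribosomal protein, read 13.11 at 0 h and 13.28, 13.26, 13.23, 13.23 and 13.22 at the following times, higher than 0 h at all 5. Rplp0, the base of the ribosomal stalk that recruits elongation factors, read 12.67 at 0 h and then 12.68, 12.83, 12.74, 12.82 and 12.79, also higher at all 5. These excesses were at most 0.17 for Rpl41 and 0.16 for Rplp0. With quantile normalization Rpl41 stood at -0.11 at 6 h and was higher at 3 times only, while Rplp0 was higher at all 5 with both other scalings. Rps28 lay between 12.77 and 12.96, and Rps3, a small subunit protein that also has a DNA repair role, between 12.63 and 12.77. Their lowest values were at 15 h for Rps28 and at 18 h for Rps3. Of the 27 members 3 were higher at all 5 times (Rpl41, Rplp0 and Rpl7l1), against 20.2% of genes, and 4 lower at all 5 (Rpl22, Rps10, Rps27 and Rps29), against 27.5% of genes. With quantile normalization these counts were 2 and 6, and with equal trimmed means 3 and 5. Rps29 then stood at 0.0040 at 6 h with quantile normalization.

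Members with a mean signal of at least 12, a limit set after the values were seen, numbered 18, and none of them passed 1.5-fold. Their largest difference was 0.28 (1.21-fold), that of Rpl10a at 18 h. The range of these 18 genes over the 6 arrays had a median of 0.16 and lay between 0.079 and 0.310. The 19 other genes with a mean signal of at least 12 had a median range of 0.33, between 0.152 and 0.970, and 5 of them passed 1.5-fold. Below this signal 4 of 9 members passed 1.5-fold, beside 22.8% of 5869 other genes. The highest value of any probe set was 13.4, and whether signals near that top are compressed was not tested.

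**Figure D2:**
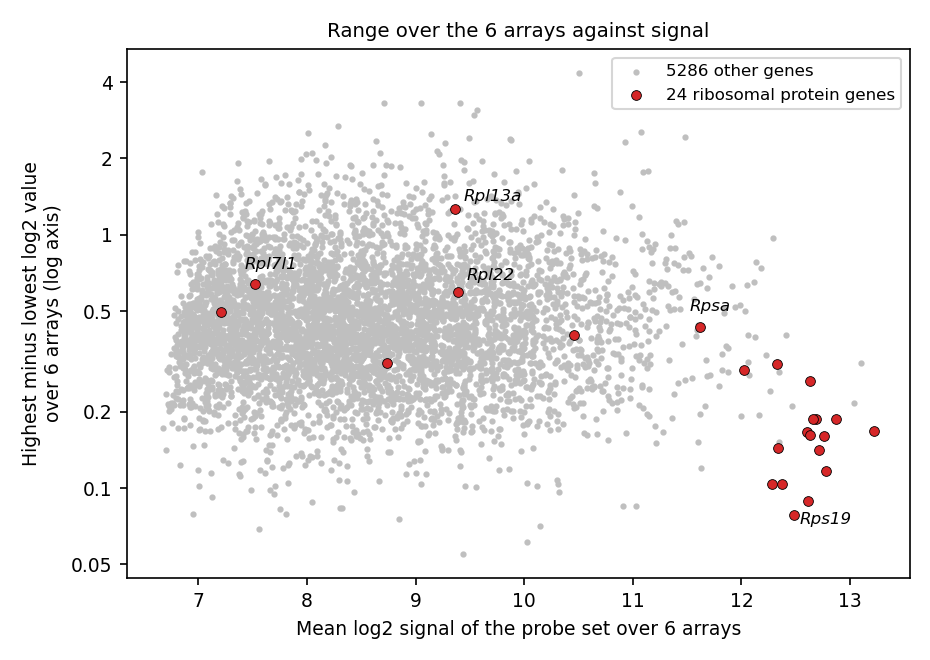
Highest minus lowest log2 value over the 6 arrays (y, log axis) against the mean log2 signal (x) for genes above the floor on all arrays; red points are 24 ribosomal protein genes and grey points 5286 other genes. Most red points lie at signals above 12 with ranges between 0.08 and 0.31, and Rpl13a stands apart with a range of 1.27.

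The bright members differed little from 0 h, and which side they lay on depended on the scaling. At 12 h 14 of the 18 were above 0 h, with a median of 0.04, beside 13 of the 19 other bright genes and 53.7% of all analysed genes. With quantile normalization 9 of the 18 were above it, and with equal trimmed means 12. At 18 h 16 of the 18 were below 0 h, with a median of -0.04, beside 7 of the 19 and 56.1% of genes, but 9 with quantile normalization and 7 with equal trimmed means. At 15 h 15 of the 18 were below 0 h, with a median of -0.07, beside 9 of the 19 and 45.4% of genes. This count was 12 with quantile normalization (median -0.021, 50.3% of genes) and 16 with equal trimmed means (median -0.13, 51.9% of genes), so more than 9 of the 18 were lower at 15 h under each of these 3 scalings. These shares were not tested. Rps3a1, a small subunit protein, was the lowest of the 18 at 18 h apart from Rpl10a and Rpl6, with 12.75 at 0 h, 12.62 at 15 h and 12.57 at 18 h. Rpl6, of the large subunit, read 12.48, 12.49, 12.42, 12.34 and 12.25 from 0 to 18 h and has no value at 24 h, so its fits use 5 arrays.

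Whether the mean of the 5 arrays after progesterone differed from 0 h was tested with limma across all probe sets. It called 0 of the 27 members at a Benjamini-Hochberg adjusted p under 0.05, against 2.69% of 7724 probe sets. At an unadjusted p under 0.05 there was 1 member, Rpl22, against 19% of probe sets. For the 18 bright members the mean of the 5 arrays minus 0 h lay between -0.19 (Rpl10a) and 0.13 (Rpl41), and the 95% intervals together ran from -0.49 to 0.33. For Rps18 the difference was 0.04 ± 0.10 (SE), with an interval from -0.18 to 0.26, and for Rpl19 it was -0.02 ± 0.09, with an interval from -0.23 to 0.20. This fit takes its error from the differences among the 5 later arrays, since 0 h has 1 array, and it gives 0 h that same error. A fit of a straight line over hours also called 0 members with limma, against 0.31% of 7731 probe sets. Here 1 member had an unadjusted p under 0.05, Rpl13a, against 16.2% of probe sets.

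Rpl13a had the widest range of the members, 1.27 over the 6 arrays. It is a large subunit protein that can leave the ribosome as part of a complex that silences inflammatory messenger RNAs. Its probe set 92834_at read 9.30 before the dose and then, in order of time, 8.87, 9.20, 9.29, 9.37 and 10.14. It was thus lowest at 6 h, by -0.43, back at the 0 h value by 15 h, and 0.84 (1.79-fold) above it at 24 h. Its slope was 0.84 ± 0.32 per 24 h (limma, adjusted p = 0.25). Without the 24 h array the slope was 0.24 (limma, adjusted p = 0.72), and without the 0 h array 1.59 (limma, adjusted p = 0.034). Leaving out the 0 h array also raised the calls over all probe sets, from 24 to 147. Stromal markers, 6 of 7 of them analysed, had their highest median at 24 h (0.65). Their summed linear signal was 13789 at 0 h and 13278 to 19236 later. They did not run alike. At 24 h Col1a1, Col1a2 and Col3a1 stood at 1.79, 1.37 and 1.08, Lum at 0.22, Pdgfra at 0.13 and Dcn at -0.33. Col1a1 and Col3a1 rose over hours (limma, adjusted p = 0.019 and 0.048), against 0.31% of probe sets called. Smooth muscle markers, 6 of 8 analysed, had medians of -0.13, 0.29, 0.28, 0.56 and 0.39 in order of time. Of these 6, 2 passed 1.5-fold, both higher, against 11.3% of genes upward. The part of stromal or smooth muscle cells in the course of Rpl13a was not tested.

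Rpl22 was lower at all 5 times. This large subunit protein is dispensable for most translation but needed for the development of alpha-beta T cells. Its probe set 92857_at read 9.79 at 0 h and then 9.20, 9.19, 9.43, 9.20 and 9.53. The progesterone arrays all lay below the 0 h array, with differences of -0.59, -0.60, -0.36, -0.59 and -0.26, of which those at 6, 12 and 18 h barely passed 1.5-fold. The mean difference was -0.48 ± 0.17 (limma, unadjusted p = 0.02, adjusted p = 0.17). A second probe set of Rpl22, 92856_at, was lower too at 15, 18 and 24 h (-0.55, -0.49 and -0.49), but read -0.10 and 0.02 at 6 and 12 h. Markers of immune cells had medians between -0.37 and -0.17 on the same arrays over 4 of 7 genes, with a summed linear signal of 3237 at 0 h and 2398 to 2747 later. Ptprc, Adgre1 and Cd3e, which define leukocytes, macrophages and T cells, were below the floor on all 6 arrays. Epithelial markers were lower still, with medians of -0.43, -0.40, -0.37, -0.60 and -0.41 over 10 of 10 genes and a summed linear signal of 10770 at 0 h and 7562 to 9086 later. Of these 10, 5 passed 1.5-fold, all lower, beside 22.8% of genes in either direction. Cldn3, Cldn4 and Cldn7 went the other way, with mean differences from 0 h of 0.43, 0.13 and 0.15 over the 5 later arrays. Krt18, Ltf and Epcam fell against 0 h (limma, adjusted p = 0.024, 0.035 and 0.01), and Krt7 fell over hours (limma, adjusted p = 0.046). Endothelial markers, 5 of 6 analysed, had medians between -0.26 and 0.04, and of them Cldn5 fell by 1.29 on the log2 scale (limma, adjusted p = 0.01). Adipoq, the only 1 of 4 adipocyte markers analysed, stood at -1.03, -0.96, -2.53, -1.72 and -2.19. The part of these cells in the course of Rpl22 was not tested, and in whole tissue fewer cells of a type and less RNA per cell cannot be told apart.

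Rpl7l1, a nucleolar paralog of Rpl7, was the member that was higher early. Its probe set 98138_at read 7.25 before the dose and then 7.83, 7.89, 7.44, 7.29 and 7.44. The 6 and 12 h arrays thus stood above all others, at 0.58 and 0.64, and 18 h was back at 0.04. The mean difference over the 5 arrays was 0.33 ± 0.23 (limma, adjusted p = 0.51). Rpl7 itself, on its bright probe set 97695_s_at, stayed between -0.11 and 0.03 at every time. The suffix _s_at marks probes shared with other transcripts. A dimmer second probe set without this mark, 97697_at, stood at 0.07, 0.35, 0.13, 0.34 and -0.04 in order of time.

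Rps29, a zinc-binding protein of the small subunit, was low at 18 h. Its probe set 98523_at read 7.48, 7.42, 7.37 and 7.21 from 0 to 15 h, 6.59 at 18 h and 7.25 at 24 h. The 18 h value lay just under the floor of 6.60, and its difference from 0 h was -0.88 with and without the floor. At 24 h the difference was -0.22. The mean difference was -0.31 ± 0.28 (limma, adjusted p = 0.62). Its other probe set lay at the lower limit on all arrays and gives no check.

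**Figure D3:**
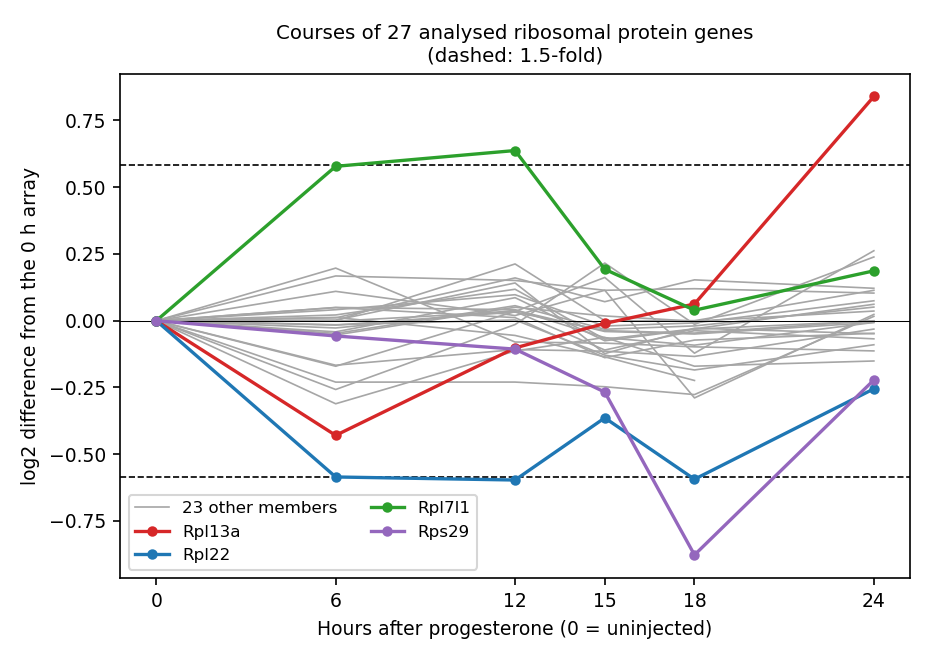
Log2 difference from the 0 h array (y) against hours after progesterone (x) for the 27 analysed ribosomal protein genes, 1 line per gene, with dashed lines at 1.5-fold. The 23 grey lines stay between -0.31 and 0.26, while Rpl22 lies below at all times, Rpl7l1 above at 6 and 12 h, Rps29 low at 18 h and Rpl13a high at 24 h.

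The count of 4 rests partly on the 0 h array. Measured from the mean of all 6 arrays, 2 members passed 1.5-fold, Rpl13a and Rps29, and the same 2 did so from the median of the progesterone arrays with 0 h left out, while 8.49% and 5.78% of genes passed. With the mean of all probe sets of a gene Rpl13a and Rpl7l1 passed, beside 19.4% of genes. There Rps29 was averaged with a probe set at the lower limit on all arrays, so this setting gives no check of it. With a higher floor (60th percentile) Rpl13a and Rpl22 passed, beside 21.6% of genes. Under this floor Rps29 was not analysed, and Rpl7l1 stood at 0.19 at 12 h.

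Just under the threshold the next members were well inside it. Rps27, a zinc-binding small subunit protein, came closest with -0.31 at 6 h, and was lower at all 5 times. Rps13 stood at -0.29 at 18 h, with 10.18 there and 10.47 to 10.58 on the other arrays. Rpl10a read 12.19 at 0 h, 11.91 to 11.96 from 6 to 18 h and 12.20 at 24 h, a dip at 4 times with a return; with quantile normalization it stood at -0.09 at 24 h. Its second probe set was lower at all 5 times, by -0.43 at 6 h and -0.20 at 24 h. Rpsa, the small subunit protein also described as a laminin receptor, went up and down, with 11.59, 11.42, 11.63, 11.76, 11.47 and 11.86. Rps4l, a paralog of Rps4x, lay between 6.93 and 7.42, and Rps4x itself between 12.57 and 12.73. Rps15 was above the floor at 12 and 24 h only, so its differences depend on the floor. At 12 h it stood at 0.21, and at 0.24 without the floor.

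Several members serve as reference genes for normalizing other measurements, and they did not run alike. Rplp0, Rps18 and Rpl19 differed from each other by at most 0.20 (1.15-fold) in their differences from 0 h, the widest gap being that of Rplp0 and Rpl19 at 18 h. Rps18 read 12.75, 12.79, 12.85, 12.73, 12.74 and 12.82. Rpl13a differed from Rps18 by -0.47 at 6 h and by 0.77 at 24 h (1.70-fold), and from Rps29 by 1.06 at 24 h (2.09-fold). A ratio to Rpl13a at 24 h would therefore differ by 1.65-fold from a ratio to Rplp0 on the same arrays. Rpl32, another common reference, was at the lower limit on all 6 arrays on its only probe set.

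**Figure D4:**
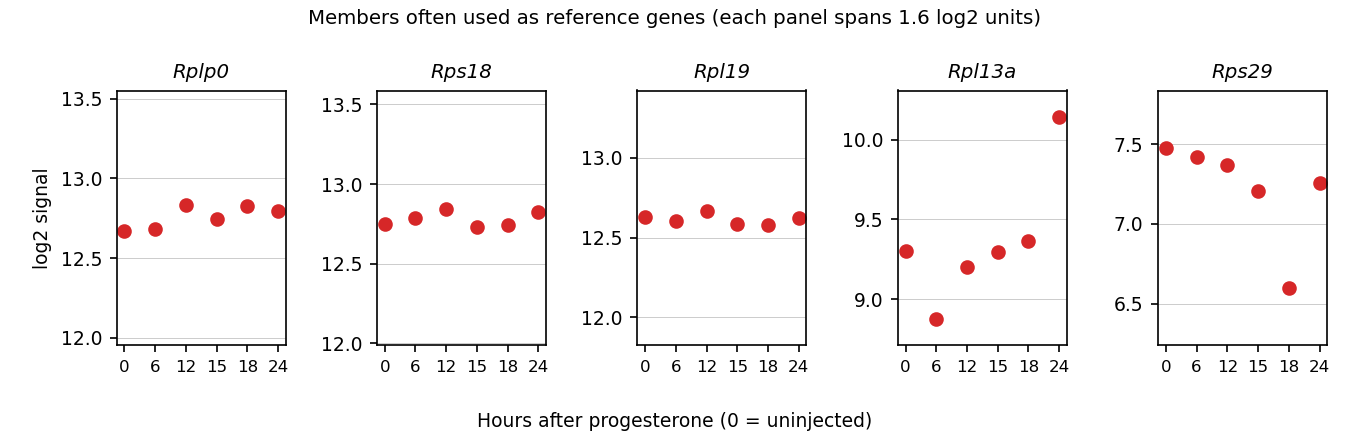
Log2 signal (y, each panel spanning 1.6 log2 units) on the 6 arrays, by hours after progesterone (x), for 5 ribosomal protein genes often used as references; each point is 1 array. Rplp0, Rps18 and Rpl19 lie almost level, Rpl13a spans 8.87 to 10.14, and Rps29 drops to the floor of 6.60 at 18 h.

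The 8 members that did not pass the floor filter were Rpl32, Rpl35a, Rpl38, Rpl39, Rpl39l, Rps14, Rps20 and Rps27l. Of these, 6 lay at the lower limit on every array and the other 2, Rpl35a and Rpl38, reached at most 5.90. They give no course, and a probe set at the limit says nothing of the gene's RNA. Of the 27 chosen probe sets 6 carry a suffix such as _f_at, _s_at or _r_at, with which Affymetrix marks probes shared with other transcripts or chosen under relaxed rules. Without these 6 the member medians were -0.03, 0.03, -0.06, -0.05 and 0.01.

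Ribosomal protein genes have many processed copies in the genome, and probe sets can read them too. A further 39 probe sets were annotated with several symbols, at least 1 of them a ribosomal protein, and stayed outside the members without names. Of these, 33 were analysed, with medians of -0.04, -0.05, -0.11, -0.09 and -0.06 in order of time. There were 2 that passed 1.5-fold, both lower, beside 22.8% of analysed genes in either direction. Of the 22 with a mean signal of at least 12, 0 passed. Limma called 0 of the 33 in either fit. Within the members, 6 further probe sets of 5 genes were analysed, and 1 of them, that of Rpl22 above, was 1.5-fold apart from the chosen probe set at some time.

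The promoters of many, but not all, of these genes carry marks of the class. Sequences are shown for Rpl13a, Rpl22 and Rpl7l1, which left the course, and for members that stayed level. Rps29, which also left it, had no promoter entry. Sequences are from RefSeq (GRCm38.p6), which held 28 of the 35 genes, and run from 50 bases before to 20 bases after the annotated start. Capitals mark the longest run of C and T, the letters that make up a TOP element. In Rpl19 they mark the first of equally long runs. The windows are Rpl13a at chr7:45128726-45128795 (minus strand), Rpl22 at chr4:152325676-152325745 (plus), Rpl7l1 at chr17:46782637-46782706 (minus), Rplp0 at chr5:115559417-115559486 (plus), Rps18 at chr17:33955646-33955715 (minus), Rpl19 at chr11:98026660-98026729 (plus) and Rpl7a at chr2:26910757-26910826 (plus).
Rpl13a: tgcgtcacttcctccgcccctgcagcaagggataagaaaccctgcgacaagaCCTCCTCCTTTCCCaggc
Rpl22: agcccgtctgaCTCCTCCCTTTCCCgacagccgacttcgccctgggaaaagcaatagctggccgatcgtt
Rpl7l1: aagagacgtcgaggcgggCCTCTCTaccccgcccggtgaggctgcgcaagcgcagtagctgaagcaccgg
Rplp0: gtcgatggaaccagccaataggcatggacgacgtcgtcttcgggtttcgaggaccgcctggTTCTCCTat
Rps18: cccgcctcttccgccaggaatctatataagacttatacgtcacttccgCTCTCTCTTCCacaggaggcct
Rpl19: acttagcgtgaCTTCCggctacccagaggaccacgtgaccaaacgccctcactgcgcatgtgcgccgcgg
Rpl7a: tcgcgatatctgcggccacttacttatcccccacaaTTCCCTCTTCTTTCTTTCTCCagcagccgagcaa

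A pyrimidine run of 10 or more bases lay within 50 bases of the start in 15 of the 28 members (53.6%), against 17.8% of the first-listed promoters of 17492 protein-coding genes. The run was 14 bases long in both Rpl13a and Rpl22, which left the common course, and 11 in Rps18 and 21 in Rpl7a, which did not. It was 7 in Rpl7l1 and Rplp0 and 5 in Rpl19. In the windows shown, the runs of Rpl22, Rpl7l1 and Rpl19 lie wholly before the annotated start, and so outside the annotated transcript. Those of Rps18 and Rpl7a cross the start, and those of Rpl13a and Rplp0 lie after it. Annotated starts can lie some bases from the start used in uterus, so a run near the start is a description and not a mapped TOP element. The letters CTTCCG, read on both strands, are the core bound by ETS factors such as Gabpa, and were in 67.9% of the 28 members' 300-base promoters, against 21.5% of all. Of the 7 genes shown, Rps18, Rpl19 and Rpl7a held it in the 300-base promoter, that of Rpl7a outside the bases printed. The progesterone and glucocorticoid receptor half-site TGTTCT, on both strands, was in 2 of the 28 (7.14%) against 16.4%. Over all 64 genes of the ribosomal protein naming rule with a promoter entry it was in 14.1%, so the lower share among the 28 rests on few promoters. The Myc E-box CACGTG, which reads the same on both strands, was in 7.14% against 7.90%, and TATAAA, on both strands, in 10.7% against 13.3%. Over the 64 genes the pyrimidine run was in 64.1% and CTTCCG in 65.6%.

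Genes that act around the ribosome gave other values on the same arrays. Ribosome biogenesis genes, which make and assemble ribosomal RNA in the nucleolus, had medians of 0.36, 0.38, 0.46, 0.22 and 0.12 over 36 analysed genes of 41, and these stayed between 0.11 and 0.43 with 2 other scalings. Of the 36, 16 passed 1.5-fold upward and 0 downward, against 11.3% of genes upward and 22.8% in either direction. Among them Fbl, the ribosomal RNA methyltransferase fibrillarin, rose by 0.89 ± 0.17 and Nhp2, a protein of box H/ACA particles, by 0.78 ± 0.14 (limma, adjusted p = 0.042 and 0.033). These 2 were the only calls among the 36, against 2.69% of probe sets. Both calls were lost when the 12, 15, 18 or 24 h array was left out (limma, adjusted p of 0.059 to 0.14), with Fbl still at 0.82 to 0.93 and Nhp2 at 0.73 to 0.81. Rrs1, an assembly factor of the large subunit, stood at 1.69 at 6 h and 0.31 at 24 h, and Bysl, one of the small subunit, at 1.58 and 0.52.

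Proteins of the mitochondrial ribosome, a separate ribosome that makes the few proteins encoded in mitochondria, had medians of 0.04, 0.22, 0.36, 0.20 and 0.33 over up to 57 genes. Of these, 11 passed 1.5-fold, all higher, against 11.3% of genes upward and 22.8% in either direction, so their count in either direction is near that of all genes. Limma called 0 in either fit, beside 2.69% of probe sets against 0 h. Translation factors and other genes known for TOP messenger RNAs had medians of -0.05, -0.06, -0.08, -0.15 and -0.02 over 16 genes. Of the 16, against 22.8% of genes, only Eif4b, an initiation factor that aids unwinding, passed 1.5-fold, with -0.83 at 12 h, and limma called 0 of the 16. Eef1a1, the elongation factor that carries aminoacyl-tRNA, lay between -0.19 and 0.03. The lists differ in brightness, and the difference between them was not tested.

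**Figure D5:**
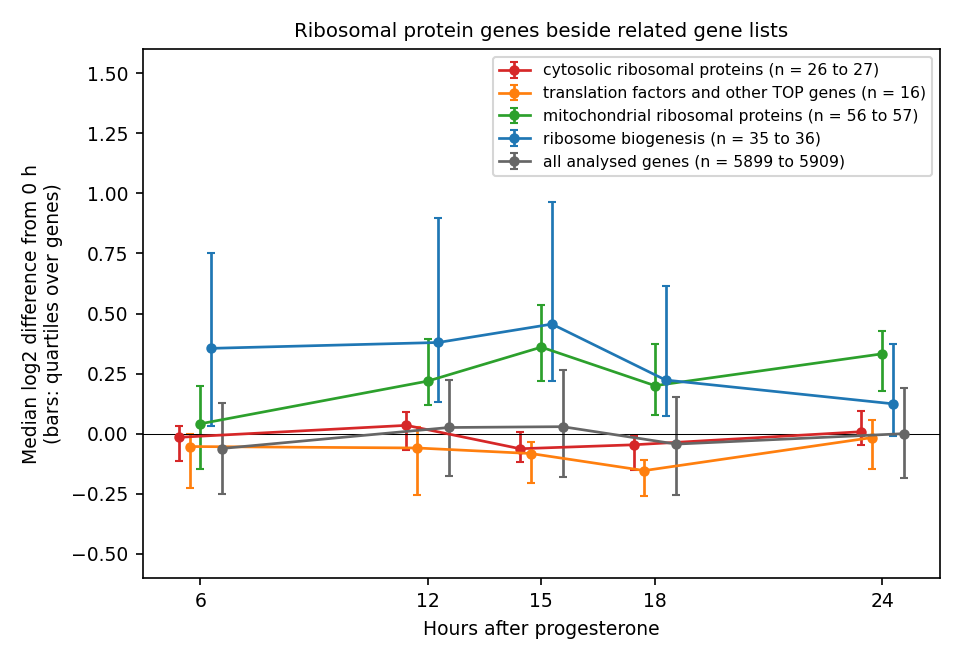
Median log2 difference from the 0 h array (y, bars are quartiles over genes) at each time after progesterone (x) for cytosolic ribosomal proteins, TOP translation factors, mitochondrial ribosomal proteins, ribosome biogenesis genes and all analysed genes; n gives the genes with a value. The cytosolic ribosomal protein medians stay between -0.06 and 0.03, while ribosome biogenesis lies between 0.12 and 0.46.

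Regulators of these genes were mixed. Of 13 analysed genes that act on mTORC1 and TOP messenger RNAs, 4 passed 1.5-fold, beside 22.8% of genes. Ddit4 and Sesn1, which restrain mTORC1, were lower, at -1.10 and -0.71 at 18 h. Tia1 and Tial1, RNA-binding proteins that hold back TOP messenger RNAs under stress, were higher, at 0.75 at 15 h and 0.64 at 6 h. Larp1 lay between -0.06 and 0.42, Mtor between -0.09 and 0.20. Among 6 transcription factors linked to ribosomal protein genes, Myc stood at 1.44 at 6 h and 0.68 to 0.96 later, and Yy1 at -0.73 at 24 h. Limma called 0 of these 19 genes in either fit, beside 2.69% and 0.31% of probe sets. Fau, whose product includes a small subunit protein, was at the lower limit on all 6 arrays.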

How the data were processed

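RNA of 6 uterus pools was measured on 6 Affymetrix arrays. The values the authors deposited are log2 expression per probe set, and the base was read from the values. No source used here names the background correction, normalization or software. The table held 12422 probe sets besides 65 controls, with 121 values missing. Its columns share a lower limit of 5.39 and were used as deposited, since their 2% trimmed means lay within -4.31% and 3.32% of their median.

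Values below the 40th percentile (6.60) were set to that floor, and the 7731 probe sets above it on at least 2 arrays were analysed. Groups and times came from the sample titles. Differences from 0 h were counted at 1.5-fold. limma 3.58.1 in R 4.3.3 (lmFit, eBayes, trend = TRUE) tested the mean of the 5 later arrays against 0 h and fitted a slope over hours, with Benjamini-Hochberg adjustment over all probe sets tested; the scripts were tested on simulated data. Other scalings, floors, probe set rules, thresholds and left-out arrays were tried as alternatives. No test was made between gene lists.

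The genes described, the gene lists and the limits were chosen with earlier results of these data known. Named genes are members past 1.5-fold or called by limma, the brightest and the steadiest members, stalk proteins, common reference genes, paralogs, members outside the floor filter and listed genes past 1.5-fold; Rpl10a, Rpl6, Rps3a1, Rps13, Rps27 and Rps10, and Larp1, Mtor and Eef1a1, were named after their values were seen. Gabpa and Gabpb1 were also named after their values were seen. Of the 12422 probe sets, 10833 had 1 gene symbol, 396 several and 1193 none.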

Additional observations from a re-analysis of the deposited data

How the results depend on the processing

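Member medians were re-taken under 7 other settings each. The 12, 15 and 18 h medians went to -0.0097, -0.016 and -0.00021 with quantile normalization, and the 15 and 18 h medians to -0.12 and 0.0061 with equal trimmed means. The others moved by less than the spread of the member median between times (0.040). Of 4 members past 1.5-fold, 2 passed with the floor at the 60th percentile, where Rps29 was not analysed. With the mean of all probe sets of a gene 2 passed, from the mean of the 6 arrays 2, and at 2-fold 0. With 0 h left out, an alternative chosen after seeing the data, 2 passed. Without the 6 h array, also chosen afterwards, the count was 4, with the same genes. Rps29 stood at -0.44 at 18 h with the mean of its probe sets, the second of which lay at the lower limit on all arrays.

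With each array left out in turn, limma called 0 to 0 members against 0 h and 0 to 1 over hours, the call being Rpl13a without the 0 h array. In every other setting of the limma fits it called 0 members, with 0 to 2 at an unadjusted p under 0.05. Over all probe sets the calls against 0 h numbered 208, and 43 to 590 with 1 array left out; those over hours numbered 24, 10 with quantile normalization, 12 with equal trimmed means, 0 with gene means or no floor, and 0 to 147 with 1 array left out. The Fbl call was also lost with gene means (limma, adjusted p = 0.054), and the Fbl and Nhp2 calls without floor (0.13 and 0.079). No paired analysis was possible because each time is 1 array and the labels give no replicate numbers. Every difference rests on 1 pool per time and 1 shared 0 h array, and differences of weak or floored signals depend on where the floor is set.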

Other observations

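Among the 20 genes with the smallest range over the 6 arrays, out of 5310 above the floor with a value on all 6, 2 were ribosomal protein genes, Rps19 and Rpl19. The smallest ranges were those of Zmiz2 (0.055), Gon4l (0.062) and AI413582 (0.069). Of the 24 ribosomal protein genes in this ranking, 20 had a range below the median of all 5310 genes, which was 0.44. From 18 to 24 h, 2 of 26 members, Rpl13a and Rps29, moved by at least 1.5-fold, and from 15 to 18 h 1 of 27, Rps29. Both moves of Rps29 rest on its single 18 h value at the floor. From 6 to 12 h and from 12 to 15 h the count was 0 of 27. Over all analysed genes, up to 5915, the counts were 47, 69, 238 and 27 in the same order.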
